A study of Mus musculus with 8 samples.

Results

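Imprinted genes are expressed mainly or wholly from a single parental copy, so that a gene is called maternally or paternally expressed. They lie together in domains, each governed by a stretch of DNA that is methylated in the egg or the sperm, and the zinc-finger protein ZFP57 with its partner TRIM28 keeps that methylation through early development. Many of them act on growth of the embryo: *Igf2* encodes a growth factor and *Igf2r* the receptor that removes it, *Cdkn1c* encodes a cell cycle inhibitor, and *Plagl1* encodes a zinc-finger transcription factor. The genes described here are 39 of the 40 genes of a list of mouse imprinted genes, found by their gene symbol among the 18996 genes named on the array. The remaining gene, *Rtl1*, had no feature named for it. Of the 39, 17 are known as maternally expressed and 22 as paternally expressed. The array does not tell the parental copies apart. The assignment is textbook knowledge, and for some of the genes imprinting is known chiefly from placenta or brain.

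Distal buds of wild type mouse lungs at E12.5 were separated with dispase and needles into the tip epithelium and the mesenchyme around it, which included the mesothelium. RNA of 4 epithelium and 4 mesenchyme samples was hybridized to 4 dual-colour arrays, with the epithelium in Cy3 and the mesenchyme in Cy5 on each array, so dye and tissue cannot be told apart. The strain is given as C57BL/6 in the methods, C57bl/6J in the sample labels and BALb/c in the description of the series, and the labels call the material an organ homogenate. The values are log2 signals that were quantile-normalized by the authors, and every log2 difference below is epithelium minus mesenchyme. Samples were tissue pieces, and in such bulk samples fewer cells of a type and less RNA per cell cannot be told apart.

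All 10 epithelial markers examined were higher in the epithelium and all 10 mesenchymal markers in the mesenchyme, so the tissues carried the genes their labels name. The mesenchyme samples also carried more of the vessel, blood and mesothelium markers. All 10 endothelial, 7 of 8 erythroid, 7 of 8 leukocyte and 6 of 8 mesothelial genes were higher there, with the mean log2 signal of the endothelial list at 5.37 to 5.73 in the epithelium and 9.09 to 9.14 in the mesenchyme, and that of the erythroid list at 6.64 to 6.73 and 9.48 to 9.63. The leukocyte list was at 5.38 to 5.45 and 7.0 to 7.13, and the mesothelial list at 5.20 to 5.36 and 7.74 to 7.80. On the other side, 6 of 8 smooth muscle genes (10.74 to 10.83 against 8.63 to 8.83) and all 7 neural crest and neuronal genes (6.21 to 6.27 against 4.62 to 4.76) were higher in the epithelium. These shifts run along the same split of samples as every result below, and their part in the results was not tested.

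Promoter windows of 300 bases, from 250 before to 50 after an annotated start, were given by RefSeq (GRCm38.p6) for 33 of the 39 genes, 50 windows in all. The median window of an imprinted gene held 15 CG pairs, against 7 over all 32851 windows. Shown are the windows of the 3 genes with the largest difference toward the mesenchyme and of 2 genes higher in the epithelium, with each CG in capitals, and for a gene with several windows the one with the most CG pairs.
Plagl1 (chr10:13090582-13090881, + strand): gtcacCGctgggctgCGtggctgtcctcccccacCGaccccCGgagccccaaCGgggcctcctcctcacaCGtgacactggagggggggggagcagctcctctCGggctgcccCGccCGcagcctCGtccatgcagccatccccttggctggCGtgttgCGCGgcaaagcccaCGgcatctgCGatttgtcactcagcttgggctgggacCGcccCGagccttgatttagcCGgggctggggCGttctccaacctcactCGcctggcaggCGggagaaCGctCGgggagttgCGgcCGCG
Mest (chr6:30737800-30738099, + strand): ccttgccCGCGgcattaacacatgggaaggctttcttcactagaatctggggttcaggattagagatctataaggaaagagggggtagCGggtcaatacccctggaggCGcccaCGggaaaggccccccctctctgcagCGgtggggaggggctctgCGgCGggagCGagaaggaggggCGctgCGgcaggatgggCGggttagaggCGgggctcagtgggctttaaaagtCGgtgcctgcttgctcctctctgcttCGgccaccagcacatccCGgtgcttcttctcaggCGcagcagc
Asb4 (chr6:5390160-5390459, + strand): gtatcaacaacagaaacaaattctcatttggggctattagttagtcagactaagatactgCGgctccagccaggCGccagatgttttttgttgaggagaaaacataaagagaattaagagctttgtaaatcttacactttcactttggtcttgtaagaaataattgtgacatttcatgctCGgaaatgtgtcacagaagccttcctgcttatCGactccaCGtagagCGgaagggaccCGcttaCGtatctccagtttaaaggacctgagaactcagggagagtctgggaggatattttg
Grb10 (chr11:12037371-12037670, - strand): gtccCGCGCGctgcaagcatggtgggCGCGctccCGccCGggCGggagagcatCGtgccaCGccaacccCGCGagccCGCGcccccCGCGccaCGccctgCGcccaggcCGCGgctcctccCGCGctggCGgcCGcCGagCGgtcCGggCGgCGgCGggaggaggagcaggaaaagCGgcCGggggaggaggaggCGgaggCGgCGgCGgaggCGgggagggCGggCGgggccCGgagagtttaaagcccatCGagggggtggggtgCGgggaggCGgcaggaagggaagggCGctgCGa
Dio3 (chr12:110278980-110279279, + strand): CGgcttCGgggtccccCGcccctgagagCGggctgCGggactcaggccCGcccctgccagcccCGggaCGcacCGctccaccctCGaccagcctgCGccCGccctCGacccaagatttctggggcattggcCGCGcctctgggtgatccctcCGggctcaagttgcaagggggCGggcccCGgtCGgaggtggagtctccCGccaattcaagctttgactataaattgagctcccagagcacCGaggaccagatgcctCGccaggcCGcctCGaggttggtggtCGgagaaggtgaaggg
The *Grb10* window held 45 CG pairs, that of *Plagl1* 26, that of *Dio3* 25 and that of *Mest* 17, whereas the *Asb4* window held 8, close to the median of all windows. Taking the window with the most CG pairs for each gene, the median was 24.5 for the 12 genes higher in the epithelium with a window, 13 for 15 genes higher in the mesenchyme and 16 for 6 genes that did not pass the test, with wide ranges of 7 to 48, 0 to 34 and 12 to 26.

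The letters TGCCGC, the core of the ZFP57 motif, were searched on both strands and found in 24% of the windows of imprinted genes (12 of 50, in 11 genes) and in 11.6% of all windows. The *Mest* window printed above holds them 2 times, and those of *Plagl1* and *Grb10* hold them 1 time each. Another *Mest* window, which starts at base 30737803, overlaps the printed window and is counted as well. The letters GGGGCCCC, a core motif of PLAGL1 that reads the same on both strands, were in 4 windows (8%, against 1.08% of all windows), those of *Ppp1r9a*, *Rasgrf1*, *Peg3* and *Usp29*, of which the last pair overlap. A match is a description of these letters and not a bound site. Both motifs are rich in G and C, as are the windows of imprinted genes (median 58%, against 52.7% over all windows). TGCCGC also holds a CG pair. The part of this base composition in the shares was not tested.

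Several of these genes also carry miRNAs, which the array features named here do not measure. By position, 40 mature miRNAs of RefSeq lie within 8 of the genes, 19 of them in *Mirg*, a long noncoding RNA, and 6 in *Rian*. The following lie in *Mest*, *H19* and *Igf2*, hosts on which results below turn, and 3 lie in *Mirg*, with bases 2 to 8, the seed, in capitals.
mmu-miR-335-5p: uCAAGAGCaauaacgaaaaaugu
mmu-miR-335-3p: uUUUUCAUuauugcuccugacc
mmu-miR-675-5p: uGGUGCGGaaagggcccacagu
mmu-miR-483-3p: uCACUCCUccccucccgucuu
mmu-miR-453: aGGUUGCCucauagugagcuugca
mmu-miR-496a-5p: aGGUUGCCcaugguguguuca
mmu-miR-410-3p: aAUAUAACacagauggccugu
Among the 40, the only seed found in 2 miRNAs was that of miR-453 and miR-496a-5p, both in *Mirg*. The host of the miR-335 pair differed by -2.46 between the tissues, whereas the hosts of miR-675 and miR-483 differed by 0.19 and 0.21.

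Of the 39 imprinted genes, limma called 12 for the epithelium (the tissue with the higher signal) and 17 for the mesenchyme with adjusted p below 0.05, and 10 did not pass. Together 29 (74.4%) passed, against 45.9% of all genes, 21.2% toward the epithelium and 24.8% toward the mesenchyme. With the array as a block 15 passed toward the epithelium and 18 toward the mesenchyme, against 26.5% and 30.9% of all genes (57.4% in either direction). The imprinted genes had brighter features than most, with a median signal percentile of 74.5, and brighter genes passed more often: outside the dimmest 30% of genes the shares were 73.7% of 38 imprinted genes and 58% of all genes. The differences ran from -2.85 to 1.42, and their median was 0.00 beside -0.03 over all genes, while the median size, without sign, was 0.55 against 0.24. At 1 or more on the log2 scale there were 4 genes in the epithelium and 8 in the mesenchyme, against 6.69% and 7.24% of all genes. The samples of both tissues did not overlap for 28 of the 39 genes, 12 toward the epithelium and 16 toward the mesenchyme, against 20.3% and 24% of all genes.

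**Figure D1:**
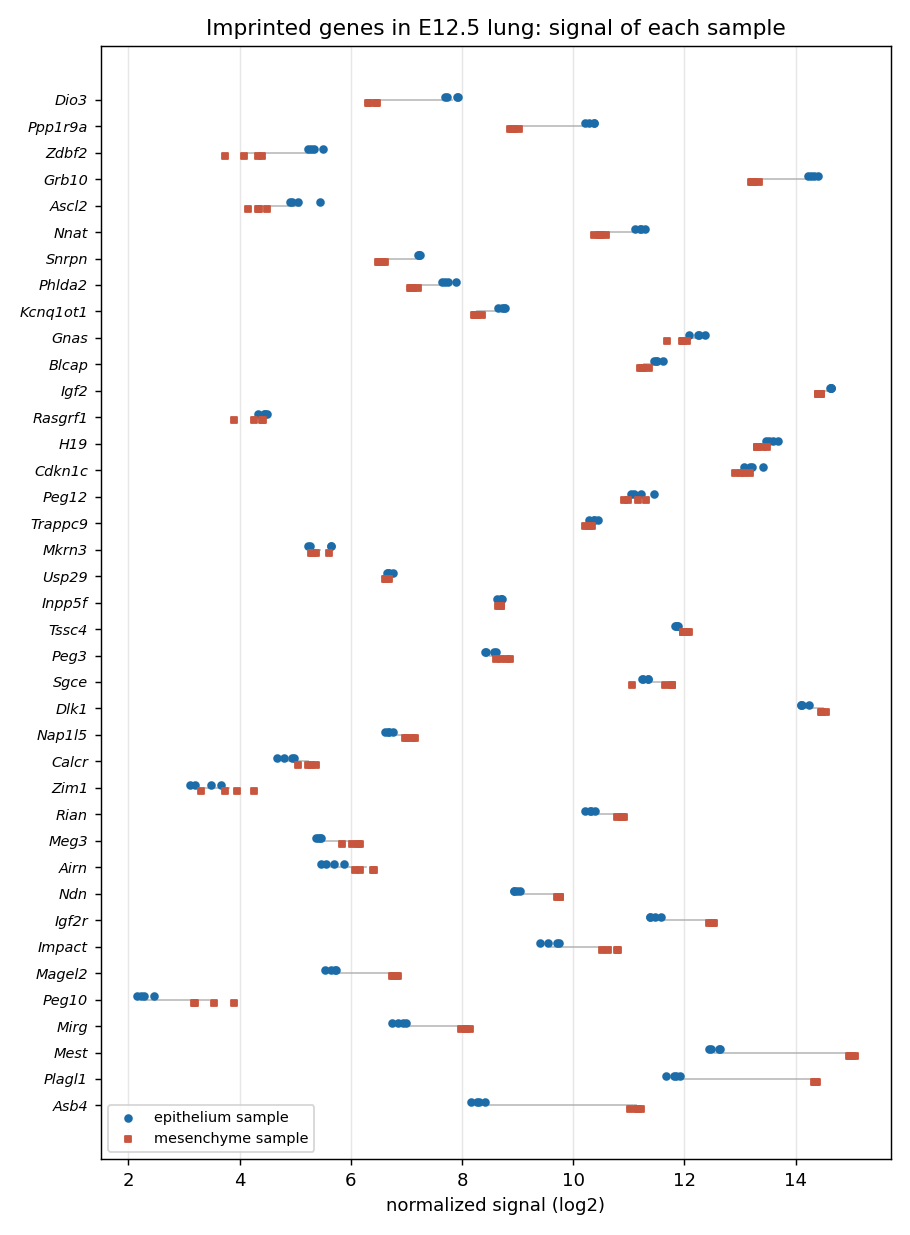
Normalized log2 signal of each imprinted gene in each of the 4 epithelium samples (circles) and 4 mesenchyme samples (squares), with a grey line between the group means and genes ordered from the largest difference toward the epithelium (top) to the largest toward the mesenchyme (bottom). *Asb4*, *Plagl1* and *Mest* stand apart at the bottom, with differences of -2.85, -2.55 and -2.46.

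The widest differences lay on the side of the mesenchyme. *Plagl1*, whose product is a transcription factor of a network of imprinted genes, had signals of 11.91, 11.84, 11.82 and 11.67 in epithelium samples and 14.33, 14.37, 14.35 and 14.38 in mesenchyme samples. Every mesenchyme sample thus lay far above every epithelium sample, and the means differed 5.84-fold (-2.55, SE 0.06, adjusted p = 5.69e-09 from limma), and a second feature of the gene gave -2.14. *Mest*, which encodes a hydrolase-like enzyme of mesoderm, reached 14.98, 14.96, 15.06 and 15.00 in mesenchyme samples and 12.64, 12.44, 12.62 and 12.48 in epithelium samples. That is a 5.5-fold difference (-2.46, SE 0.06, adjusted p = 7.57e-09 from limma), measured with a single feature. *Asb4*, which encodes a substrate adaptor of a ubiquitin ligase, had 8.42, 8.31, 8.16 and 8.27 in epithelium samples and 11.22, 11.16, 11.02 and 11.15 in mesenchyme samples. The groups were separated by more than any others of the list (7.19-fold, -2.85, SE 0.07, adjusted p = 7.17e-09 from limma), and the dimmer feature of *Asb4* gave -2.36.

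Among regulators of growth, the gene for the IGF2 receptor followed the mesenchyme while the gene for its ligand barely differed. *Igf2r* had signals of 11.58, 11.38, 11.39 and 11.47 in epithelium samples and 12.45 to 12.53 in the 4 mesenchyme samples, with no overlap (2.06-fold, -1.05, SE 0.06, adjusted p = 1.1e-06 from limma). *Igf2* had 14.64, 14.63, 14.63 and 14.63 in epithelium samples and 14.46, 14.40, 14.39 and 14.45 in mesenchyme samples. The groups did not overlap, but the difference was 0.21 (1.15-fold, SE 0.05, adjusted p = 0.00546 from limma). All 11 features of *Igf2* were higher in the epithelium, by 0.05 to 0.38, and all name the same transcript. They were read on the same 4 arrays, so their agreement is not independent support. Several did not pass when adjusted over all features, with adjusted p of 0.0833 to 0.733 from limma. In some of them the groups overlapped. The feature shown was brighter than 99.3% of all genes. *H19*, the noncoding RNA next to *Igf2*, had 13.68, 13.47, 13.60 and 13.52 in epithelium samples and 13.49, 13.31, 13.42 and 13.31 in mesenchyme samples, overlapping groups with a difference of 0.19 (SE 0.07, adjusted p = 0.0542 from limma). With the array as a block *H19* passed (adjusted p = 0.00274 from limma), as it did without the second epithelium sample (0.0481) or the first mesenchyme sample (0.0385). It also passed without the dimmest 30% of genes (0.0309), with the mean of its features (0.00575), by cyclic loess (0.032) and with the other variance model (0.0168), and its second feature gave 0.29 (adjusted p = 0.00663 from limma).

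*Grb10*, whose product binds insulin and IGF1 receptors and restrains growth, lay on the epithelial side. Its signals were 14.28, 14.40, 14.23 and 14.33 in epithelium samples and 13.25, 13.34, 13.21 and 13.20 in mesenchyme samples (2.08-fold, 1.06, SE 0.06, adjusted p = 9.27e-07 from limma), and its other features gave 0.68 and 1.0. *Cdkn1c* had 13.21, 13.41, 13.08 and 13.18 in epithelium samples and 13.07, 13.17, 12.91 and 13.02 in mesenchyme samples. These groups overlapped (0.18, SE 0.09, adjusted p = 0.133 from limma), yet the epithelium sample was the higher on all 4 arrays, and with the array as a block the gene passed (adjusted p = 0.00568 from limma). *Phlda2*, which encodes a PH-domain protein that limits placental growth, was 1.55-fold higher in the epithelium (0.63, SE 0.07, adjusted p = 8.72e-05 from limma), with 0.58 from its other feature.

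The genes of the *Dlk1-Dio3* domain on chromosome 12 did not share a direction. *Dlk1*, which encodes a transmembrane protein of the Notch ligand family, had 14.24, 14.10, 14.09 and 14.11 in epithelium samples and 14.55, 14.47, 14.45 and 14.48 in mesenchyme samples, a small difference without overlap (-0.35, SE 0.05, adjusted p = 0.000753 from limma). The maternally expressed noncoding RNAs of the domain were all higher in the mesenchyme, with differences of -0.61 (SE 0.08) for *Meg3*, -0.55 for *Rian*, a host of small nucleolar RNAs (SE 0.06, with -0.61 and 0.59 from its dimmer features) and -1.19 (SE 0.07) for *Mirg*, the host of 3 of the miRNAs printed above. *Mirg* had 7.0, 6.95, 6.84 and 6.74 in epithelium samples and 8.08, 8.14, 8.08 and 7.98 in mesenchyme samples. At the far end of the domain *Dio3*, which encodes the deiodinase that inactivates thyroid hormone, had 7.73, 7.69, 7.91 and 7.92 in epithelium samples and 6.31, 6.33, 6.46 and 6.45 in mesenchyme samples. This was the largest difference toward the epithelium among the 39 genes (2.68-fold, 1.42, SE 0.07, adjusted p = 5.74e-07 from limma).

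The domain of *Peg10* on chromosome 6 spanned the widest range, from -2.85 for *Asb4* to 1.38 for *Ppp1r9a*. *Ppp1r9a*, which encodes the actin-binding protein neurabin, had 10.37, 10.28, 10.21 and 10.37 in epithelium samples and 8.93, 8.90, 8.86 and 9.02 in mesenchyme samples with its brightest feature (SE 0.06, adjusted p = 1.81e-07 from limma). Its next feature ran the other way (-0.57), and the other pair gave 0.47 and -0.22. *Peg10*, a gene derived from a retrotransposon, had 2.47, 2.15, 2.22 and 2.29 in epithelium samples and 3.90, 3.19, 3.54 and 3.19 in mesenchyme samples (-1.17, SE 0.16, adjusted p = 0.000326 from limma). Its feature was among the dimmest 30% of all genes, as for no other gene of the list. *Sgce*, which encodes epsilon-sarcoglycan, had 11.24, 11.34, 11.34 and 11.26 in epithelium samples and 11.65, 11.77, 11.07 and 11.78 in mesenchyme samples. The third mesenchyme sample lay below all epithelium samples, and the gene did not pass (-0.27, SE 0.15, adjusted p = 0.184 from limma). Without that sample the difference was -0.44 (adjusted p = 0.00078 from limma), and the other feature of *Sgce*, with all samples, gave -0.56. *Calcr*, the calcitonin receptor gene, had the higher signal in the mesenchyme (difference -0.39, SE 0.09, adjusted p = 0.00853 from limma), but did not pass without the third array (adjusted p = 0.0555 from limma).

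In the domain of *Snrpn* on chromosome 7, the region of the Prader-Willi syndrome in humans, all 5 genes analysed are paternally expressed, and they too lay on both sides. *Ndn*, which encodes the MAGE family protein necdin, had 8.93, 8.94, 9.05 and 8.98 in epithelium samples and 9.76, 9.74, 9.76 and 9.72 in mesenchyme samples (-0.77, SE 0.05, adjusted p = 2.2e-06 from limma). *Magel2*, a MAGE gene beside it, differed by more, with 5.71, 5.65, 5.74 and 5.54 against 6.75, 6.77, 6.85 and 6.82 (-1.14, SE 0.06, adjusted p = 6.31e-07 from limma). *Snrpn*, which encodes a spliceosomal protein, had 7.22, 7.25, 7.21 and 7.22 in epithelium samples and 6.51, 6.61, 6.57 and 6.49 in mesenchyme samples, in the opposite direction (0.68, SE 0.05, adjusted p = 5.07e-06 from limma). *Mkrn3* (0.05, SE 0.12) and *Peg12* (0.10, SE 0.12) did not pass, though *Peg12* had the higher signal in its epithelium sample on all 4 arrays and passed with the array as a block (adjusted p = 0.0337 from limma).

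**Figure D2:**
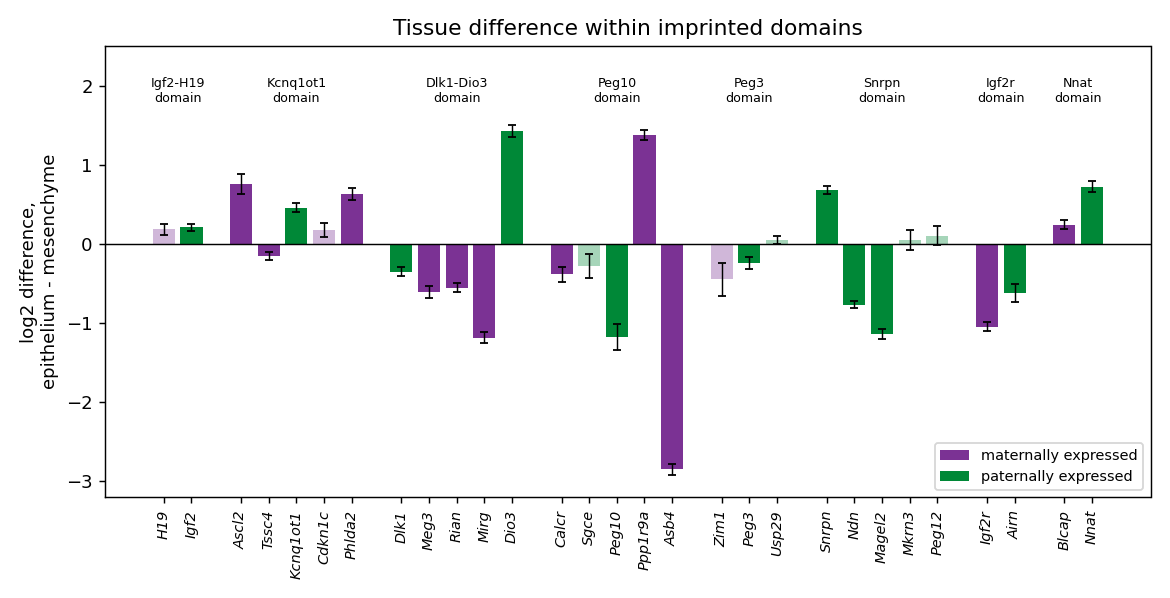
Log2 difference, epithelium minus mesenchyme, of the 29 imprinted genes that lie in the 8 domains with more than a single gene analysed, in the order in which they are grouped here; bars are the difference between the means of 4 samples, error bars its standard error from limma, purple maternally and green paternally expressed genes, and pale bars genes that did not pass the test. In 4 of the 8 domains genes passed in both directions. These were the domains with 5 genes analysed, and the others had 2 or 3, so the count goes with domain size. Of all genes, 21.2% passed toward the epithelium and 24.8% toward the mesenchyme.

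Of the 5 listed genes of the *Kcnq1ot1* domain on chromosome 7, 3 were called for the epithelium and 1 for the mesenchyme. Further genes of this domain, named after their values were seen, were called for the mesenchyme, namely *Kcnq1* (-1.17), *Cd81* (-0.74), *Nap1l4* (-0.33) and *Osbpl5* (-0.22), and *Slc22a18* (0.99) for the epithelium. *Kcnq1ot1* itself, the noncoding RNA of the domain, had 8.72, 8.77, 8.64 and 8.76 in epithelium samples and 8.23, 8.27, 8.22 and 8.36 in mesenchyme samples (0.45, SE 0.06, adjusted p = 0.000203 from limma). *Ascl2*, which encodes a transcription factor needed in the placenta, was higher in the epithelium as well (0.75, SE 0.13, adjusted p = 0.00134 from limma), but its other feature gave 0.04. Among the listed genes *Tssc4* lay slightly on the other side (-0.15, SE 0.05, adjusted p = 0.033 from limma), and leaving out any single sample or array other than the first or the fourth mesenchyme sample ended its call, with adjusted p of up to 0.16. In the *Igf2r* domain on chromosome 17, *Airn*, the noncoding RNA that runs across *Igf2r*, was also higher in the mesenchyme with its brightest feature (-0.61, SE 0.11, adjusted p = 0.00206 from limma). Its other features gave 0.37, 0.34 and -0.04, so no direction held across the features of *Airn*.

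*Nnat*, which encodes the small membrane protein neuronatin and lies within an intron of *Blcap*, had 11.20, 11.12, 11.22 and 11.29 in epithelium samples and 10.46, 10.38, 10.50 and 10.59 in mesenchyme samples (1.65-fold, 0.72, SE 0.06, adjusted p = 1.97e-05 from limma). *Blcap* differed by less in the same direction (0.24, SE 0.06, adjusted p = 0.0098 from limma), and did not pass without the second array (adjusted p = 0.059 from limma). *Gnas*, which encodes the stimulatory G protein alpha subunit, was 0.32 higher in the epithelium (SE 0.09, adjusted p = 0.021 from limma), and its call was lost without the first (adjusted p = 0.0773) or the second array (0.0771), or without the second (0.0518) or the third epithelium sample (0.0569). The 8 features of *Gnas*, a locus with several overlapping transcripts, gave -0.18 to 0.64. In the domain of *Peg3*, a zinc-finger gene, *Peg3* was lower in the epithelium (-0.24, SE 0.08, adjusted p = 0.0347 from limma), a call that leaving out a single sample or array ended in 9 of 12 cases, with adjusted p of up to 0.118. Its second feature gave -0.32 and its dimmest 0.62. *Usp29*, a ubiquitin protease gene that starts beside *Peg3*, gave 0.05 (SE 0.05) with its brightest feature and 0.60 with its second. *Zim1*, a zinc-finger gene of the same domain, was measured dimly and did not pass (-0.45, SE 0.21, adjusted p = 0.112 from limma), but did with the array as a block (0.0396) or without the first mesenchyme sample (0.0195).

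The genes that lie apart from these domains were also divided. *Impact*, whose product restrains the kinase GCN2, had 9.71, 9.75, 9.54 and 9.40 in epithelium samples and 10.80, 10.78, 10.62 and 10.51 in mesenchyme samples (2.11-fold, -1.08, SE 0.10, adjusted p = 2.54e-05 from limma). *Nap1l5*, a gene of the nucleosome assembly protein family that lies within *Herc3*, had the higher signal in the mesenchyme (difference -0.39, SE 0.06, adjusted p = 0.000801 from limma). *Zdbf2*, a zinc-finger gene, had 5.33, 5.28, 5.50 and 5.23 in epithelium samples and 4.41, 3.73, 4.34 and 4.07 in mesenchyme samples, without overlap although the mesenchyme samples were spread (1.20, SE 0.15, adjusted p = 0.000159 from limma, with 1.46 from the other feature). *Rasgrf1* (0.19, SE 0.12), a Ras exchange factor gene, *Trappc9* (0.09, SE 0.06) and *Inpp5f* (0.00, SE 0.05), an inositol phosphatase gene, did not pass. The other feature of *Inpp5f*, with a low mean signal of 3.11, gave 0.76 (adjusted p = 0.0224 over all features from limma).

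Maternally and paternally expressed genes were then set beside each other. Of the 17 maternally expressed genes, 6 were called for the epithelium, 7 for the mesenchyme and 4 did not pass, with a median difference of 0.09. Of the 22 paternally expressed genes, 6 were called for the epithelium, 10 for the mesenchyme and 6 did not pass, with a median of -0.12. Both groups spanned nearly the same range, from -2.85 (*Asb4*) to 1.38 (*Ppp1r9a*) and from -2.55 (*Plagl1*) to 1.42 (*Dio3*). The difference between the medians, 0.21, was not stable. A stricter choice left out genes whose imprinting is known mainly from placenta or brain or differs between transcripts. For the remaining 9 maternally expressed and 19 paternally expressed genes the medians were -0.45 and -0.27, and the order was reversed. The median of the maternally expressed genes was 0.04, 0.09, 0.16 and 0.08 on the 4 arrays, that of the paternally expressed genes -0.17, -0.12, 0.02 and -0.11.

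**Figure D3:**
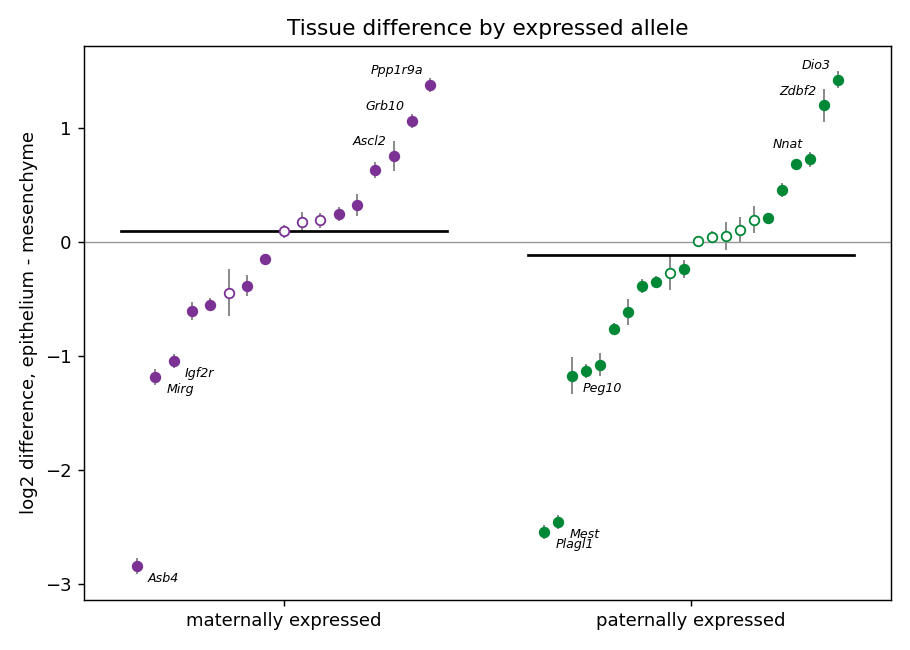
Log2 difference, epithelium minus mesenchyme, of 17 maternally and 22 paternally expressed imprinted genes, each sorted by value; filled circles passed limma's test and open circles did not, vertical lines are standard errors, and horizontal bars are the medians (0.09 and -0.12). The clouds cover nearly the same range.

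Neighbours in a domain were compared by the difference between their tissue differences, in 12 pairs, with an exact permutation test over the samples that cannot go below p = 0.0286 with 4 against 4. Of the 12 pairs, 8 reached that value (adjusted p = 0.0429 over the 12, exact permutation test, two-sided). Of the 7 pairs in which one gene is maternally and the other paternally expressed, *Igf2* and *H19* differed from each other by 0.02 (SE 0.06, exact permutation p = 0.657) and *Peg3* and *Zim1* by 0.21 (SE 0.19, exact permutation p = 0.314), while *Dlk1* with *Meg3* (0.26), *Nnat* with *Blcap* (0.48), *Airn* with *Igf2r* (0.43), *Kcnq1ot1* with *Cdkn1c* (0.28) and *Peg10* with *Asb4* (1.67) reached it. Of the 5 pairs with the same expressed copy, *Meg3* and *Rian* differed by -0.06 (SE 0.07, exact permutation p = 0.371) and *Peg3* and *Usp29* by -0.28 (SE 0.09, exact permutation p = 0.0571). *Peg10* with *Sgce* (-0.90), *Ndn* with *Magel2* (0.37) and *Cdkn1c* with *Phlda2* (-0.45) reached it. Pairs of other genes were not tested, so no share over all genes stands beside the 8 of 12 pairs. The adjusted p of these pairs is set by how many of them lie at the smallest possible p. Of all single genes, 45.9% passed limma's test between the tissues. Flipping signs within arrays, which respects the pairing of samples, gave an exact p of 0.125 for 9 of the 12 pairs, the smallest that 4 arrays allow, so no pair could pass that test. The epithelium signals of *Peg10* (2.15 to 2.47) were as low as those of the dimmest features, so the sizes given for its pairs with *Asb4* and *Sgce* are not exact.

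Features of the same gene did not always give the same answer. Of the 23 genes with several features, all features had the same sign in 15, among them *Igf2*, *Grb10*, *Plagl1*, *Asb4*, *Dlk1* and *Zdbf2*, and signs were mixed in 8. The 11 features of *Igf2* name the same transcript and most have nearly the same signal. They may be replicate spots, so their shared sign may be repetition. In 4 genes, *Airn*, *Peg3*, *Ppp1r9a* and *Rian*, features passed limma's test in opposite directions when adjusted over all features. Of these, the dissenting features of *Peg3* (0.62) and *Rian* (0.59) were the dimmest of their genes, with mean signals of 2.69 and 2.68. The other 16 genes, *Mest*, *Igf2r*, *Dio3* and *Cdkn1c* among them, were represented by a single feature.

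**Figure D4:**
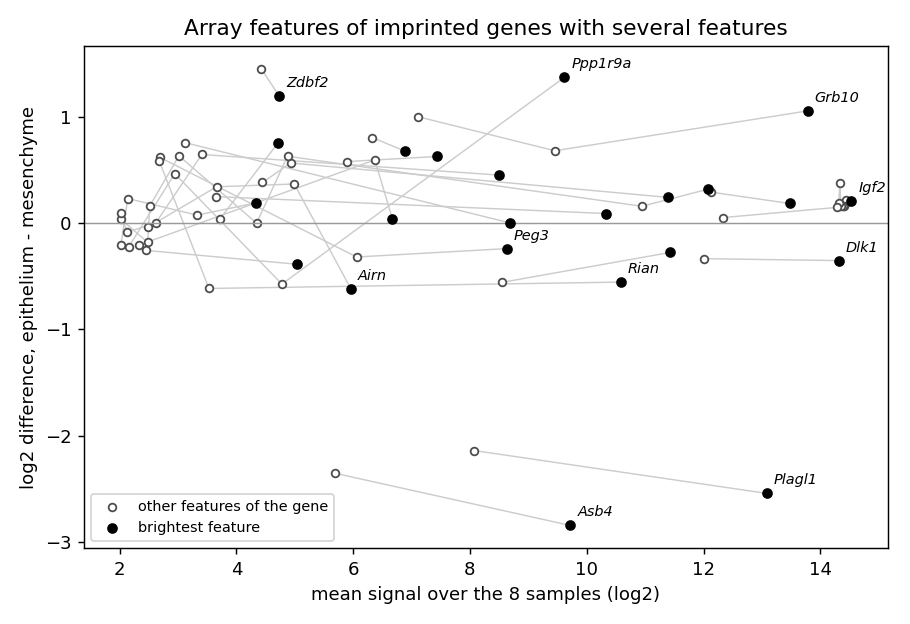
Mean signal over the 8 samples (x axis, log2) against the log2 difference, epithelium minus mesenchyme (y axis), of every feature of the 23 imprinted genes with several features; filled circles are the brightest feature of a gene, open circles the others, and lines join the features of a gene. The lines of *Plagl1* and *Asb4* stay below -2, and those of *Ppp1r9a* and *Airn* cross 0.

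Among 30 further genes known as imprinted in the mouse, mostly in placenta or brain, 24 were analysed, of which 4 were called for the epithelium, 12 for the mesenchyme and 8 did not pass, with a median of -0.24. These calls are 16.7% and 50% of the 24, against 21.2% and 24.8% of all genes. The matrix proteoglycan gene *Dcn* (-1.28, SE 0.09), the potassium channel gene *Kcnq1* (-1.17, SE 0.08) and *Phactr2* (-1.43, SE 0.08) lay furthest toward the mesenchyme, and *Ddc*, which encodes an amine-synthesizing decarboxylase, had the higher signal in the epithelium (1.15, SE 0.07). *Kcnq1* lies in the domain of *Kcnq1ot1*, whose RNA is antisense to it and was higher in the other tissue. Among factors that set or keep imprints, 18 were analysed, with 4 called for the epithelium, 3 for the mesenchyme and 11 that did not pass. The share that passed, 38.9%, was below the 45.9% of all genes and the 58% of genes outside the dimmest 30%. Those that passed included *Zfp445*, a zinc-finger gene with a role like that of *Zfp57* (0.61, SE 0.09), and *Uhrf1*, which guides maintenance methylation (0.33, SE 0.07), toward the epithelium, and the methyltransferase genes *Dnmt3a* (-0.39, SE 0.06) and *Dnmt3b* (-0.51, SE 0.06) and their cofactor *Dnmt3l* (-1.86, SE 0.17) toward the mesenchyme. The maintenance methyltransferase gene *Dnmt1* (0.04, SE 0.07) and *Trim28* (0.14, SE 0.09) did not pass.

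Of 8 further genes of IGF signaling, 6 were analysed, and 4 were called for the epithelium and none for the mesenchyme. Of all genes, 21.2% were called for the epithelium and 24.8% for the mesenchyme. *Igf1*, the gene of the other IGF ligand, differed by 1.82 (SE 0.06, adjusted p = 1.86e-08 from limma) and *Irs1*, an adaptor of the receptors, by 1.07 (SE 0.05). *Igf2bp1*, which encodes an RNA-binding protein of *Igf2* transcripts, differed by 0.55 (SE 0.11). *Igf1r*, the gene for the receptor that carries the signal of IGF2, gave 0.03 (SE 0.05, adjusted p = 0.633 from limma), with 8.63 in the epithelium and 8.60 in the mesenchyme.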

How the data were processed

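Gene expression was measured on 4 dual-colour arrays, in 4 epithelium and 4 mesenchyme samples, and the number of arrays limits the precision. The deposited values are log2 signals. According to the methods, the authors subtracted background by the normexp method (offset 1), took logarithms, normalized by quantiles and averaged replicate spots, in limma. For each feature 1 value is deposited, and the base of the logarithm was read from the range of the values. Features that name the same transcript, such as the 11 of *Igf2*, may be replicate spots that were left unaveraged in the deposited values. Of 45220 features, 33653 had 1 gene in the platform's annotation, 56 had several and 11511 none here; 33517 of the 33653 matched RefSeq of GRCm38.p6. A further 523 features lacked a value on at least 1 array and were dropped, which was decided with the values in view. The feature with the highest mean stood for each gene, as in the methods but without averaging spots first.

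Differences were fitted without pairing in limma 3.58.1 (lmFit, eBayes; R 4.3.3), with Benjamini-Hochberg adjustment over 18996 genes and a threshold of 0.05. Samples of the same array deviated together from the means of their tissues (correlations across genes 0.35, 0.62, 0.53 and 0.47, others at most -0.04), so the numbers pair the samples, and values with the array as a block are given where they change a call. The description of the series gives 4 embryos as the source of both tissues, and p-values reflect the spread between these samples. Neighbouring genes were compared with an exact permutation test. The fit was tested on simulated data in which all samples were drawn independently. That simulation left out the shared deviation of samples on the same array, so it does not show how the unpaired fit handles it. Alternatives were the array as a block, leaving out samples or arrays, a filter on dim genes, the mean of a gene's features, cyclic loess, another variance model, keeping missing values, a minimum difference, and stricter lists of maternally and paternally expressed genes. The genes and lists were chosen with earlier results of these data known. All imprinted genes of the list may be named, and of other lists up to 3 genes in each direction. Others were named after their values were seen, namely *Dnmt1*, *Trim28*, *Igf1r*, *Cd81*, *Nap1l4*, *Osbpl5* and *Slc22a18*. Sequences are from RefSeq tables. Python 3.11.15, pandas 2.3.3 and matplotlib 3.10.9 were used for tables and plots.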

Additional observations from a re-analysis of the deposited data

Results flagged for a closer look

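In 78 groups of 4 samples (39 imprinted genes in both tissues), 1 sample stood further from the others than Dixon's 95% critical value allows, whereas chance flags about 1 group in 20. It was the first epithelium sample for *Dlk1*, with a signal of 14.24, above the other epithelium samples and below all mesenchyme samples.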

How the results depend on the processing

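The 12 calls for the epithelium and 17 for the mesenchyme stayed within 10 to 15 and 14 to 18 under all alternatives except the minimum difference of 1 on the log2 scale, which left 4 and 8 (1270 and 1375 of all genes). With the array as a block, that is, with samples paired by replicate number, 15 and 18 imprinted genes passed, against 5035 and 5877 of all genes; the block added *H19*, *Cdkn1c* and *Peg12* to the epithelium and *Zim1* to the mesenchyme and changed no other call among the 39. Averaging all features of a gene moved the median of the imprinted genes to 0.051, that of the maternally expressed to 0.17 and of the paternally expressed to 0.036, their difference to 0.14, and gave 0.016 for *Airn* and 0.022 for *Peg3* in place of a negative difference, neither of which passed. It also ended the call of *Rian* (-0.19, adjusted p = 0.181 from limma). Averaging let *H19* (0.24, adjusted p = 0.00575 from limma), *Sgce* (-0.42, 0.00317), *Trappc9* (0.17, 0.0484) and *Inpp5f* (0.38, 0.0299) pass. Without the dimmest 30% of genes the median of the paternally expressed genes was 0.0040 and the difference 0.088. The stricter lists gave -0.45 and -0.27, with a difference of -0.17. Leaving out samples or arrays gave 0.17 to 0.26 for the difference between the medians. By cyclic loess 7 of the 12 pairs of neighbours passed, without *Dlk1* and *Meg3* (adjusted p = 0.114, exact permutation test), and *Tssc4* and *Peg3* no longer passed. With the mean of all features 8 pairs passed, but *Kcnq1ot1* with *Cdkn1c* did not (0.046, adjusted p = 0.714, exact permutation test) and *Meg3* with *Rian* did (-0.42, adjusted p = 0.0429, exact permutation test). With samples paired by array no pair passed, since p cannot go below 0.125, and with a sample left out it cannot go below 0.0571. Leaving out the imprinted genes among the brightest 5% of all genes, chosen after seeing the data, left 10 and 14 calls.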
